A study of Mus musculus with 10 samples.

Results

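TAM long was compared with DMBA in mouse intestinal organoids, with 2 RNA-seq libraries in each group. These 4 libraries of the 10 in the study were chosen by the treatment in their labels, and all genes of the deposited count table entered the comparison. Of 47069 genes, 16179 had enough counts to be tested. Both groups were C57BL/6 organoids kept for 50 days in Matrigel with epidermal growth factor, Noggin and R-spondin 1, and per the study's methods both came from mice with Lgr5-EGFP-CreERT2 and *Ppp2r1a* floxed on both alleles. DMBA libraries received dimethylbenzanthracene, a carcinogen that binds DNA after metabolic activation, and no tamoxifen. TAM long libraries received tamoxifen (TAM), labelled as dosage-sensitive and long, and no DMBA. Tamoxifen activates the Cre recombinase, which the *Lgr5* promoter drives in crypt stem cells only, so that any deletion starts in those cells and their descendants. The DMBA label also carries the word long, and what long means is not given in the sources used here. The other groups were a saline control, TAM short and DMBA+TAM. The library names (NL and DSS_L) do not spell out a treatment, so the groups rest on the protocol in each label, and nothing in the labels says whether the libraries of a group came from separate mice or cultures. P-values then measure only the spread between these libraries.

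Protein phosphatase 2A (PP2A) removes phosphate from serine and threonine of many signalling proteins, and its scaffold subunit A alpha, encoded by *Ppp2r1a*, holds the catalytic and regulatory subunits together. The intestinal epithelium renews from *Lgr5*+ crypt stem cells into absorptive cells and into goblet, enteroendocrine, tuft and Paneth cells. Many of its cells also carry 2 transcriptional programmes that answer to few regulators: genes induced by interferon, and the circadian clock, in which BMAL1 (encoded by *Arntl*) with CLOCK or NPAS2 drives the genes of its own repressors.

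Levels are normalised CPM (read counts scaled to the library's total), and values of a group are given for replicate 1 and then replicate 2. *Ppp2r1a* was at 169 and 157 normalised CPM in TAM long and at 167 and 153 in DMBA. The groups overlapped, and the log2 fold change was 0.03 ± 0.11 (SE; adjusted p = 0.924). All fold changes are TAM long over DMBA from edgeR's quasi-likelihood test over the 10 libraries, with p-values adjusted by Benjamini-Hochberg over the 16179 genes and a threshold of 0.05. Counts are sums over all exons of a gene, so loss of the floxed exons 5 and 6 cannot be read from this value. None of the 23 measured PP2A subunits and inhibitors passed edgeR's test (3 had an unadjusted p under 0.05, and DESeq2 called 1 lower), and their median log2 fold change was 0.02.

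The 4 libraries held 9159327 to 10923673 counts, and mitochondrial transcripts took 4.16% and 4.35% of them in TAM long and 2.89% and 2.80% in DMBA. The replicates of DMBA lay further apart than those of TAM long. Between the DMBA libraries 1181 genes (7.30%) differed over 2-fold and the median absolute log2 ratio was 0.252, against 491 genes (3.03%) and 0.185 between the TAM long libraries. Across genes, the DMBA libraries correlated with r = 0.967 on log2 values, below the 0.975 and 0.974 of DMBA replicate 1 with each TAM long library. By the median absolute log2 ratio the order was reversed, with 0.252 between the DMBA libraries and 0.279 to 0.290 between TAM long and DMBA libraries. Genes are not independent replicates. DMBA replicate 2 stood apart in genes of the exocrine pancreas, whose 12 listed members summed to 6499 normalised CPM there and to 66.4, 93.9 and 107 in TAM long and DMBA replicate 1. *Ctrb1*, a chymotrypsinogen, was at 1657 normalised CPM in DMBA replicate 2 and between 0 and 0.357 in the other 3 libraries. *Osr2* was lower in replicate 2 of both groups, at 56.9 and 0.983 normalised CPM in TAM long and 39.1 and 0.449 in DMBA.

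**Figure D1:**
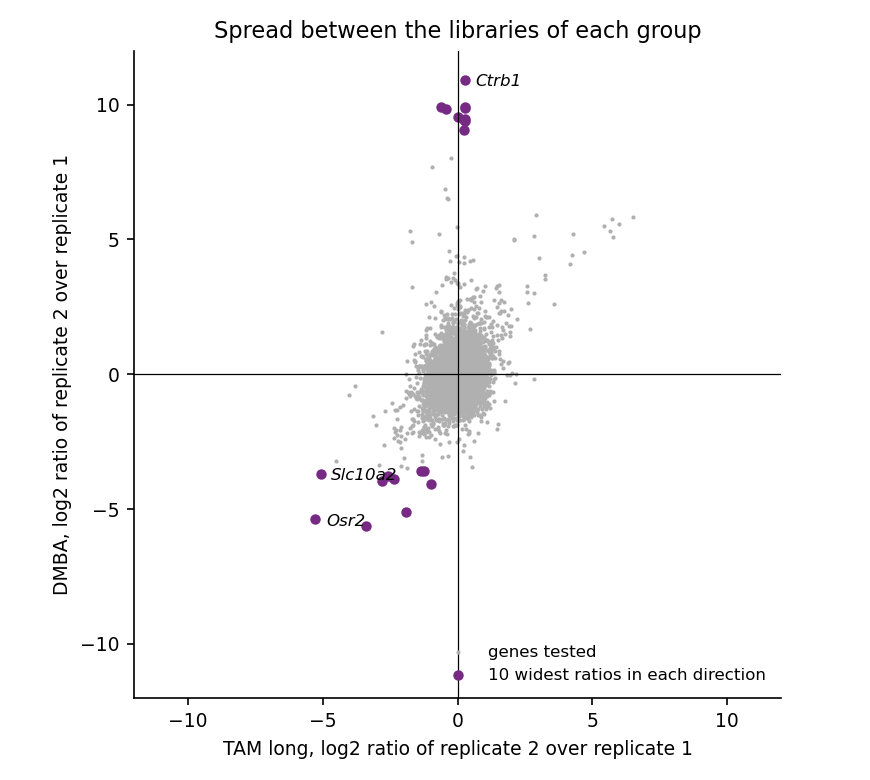
Spread between the libraries of each group, with a grey point per tested gene. The horizontal axis is the log2 ratio of replicate 2 over replicate 1 in TAM long, the vertical axis the same in DMBA (normalised CPM plus 0.5), and purple points are the 10 widest DMBA ratios in each direction, among them genes with too few counts to be tested. The upper purple points, *Ctrb1* among them, are far apart in DMBA and near 0 in TAM long, whereas *Osr2* and *Slc10a2* are below 0 in both groups.

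The labelled cell type was checked against its markers. Epithelial genes were present in all 4 libraries, with *Epcam* between 1418 and 1724 normalised CPM. *Sis*, the sucrase-isomaltase of small intestinal enterocytes, was at 3.45 and 0.393 in TAM long, 2.32 and 0 in DMBA, and at a mean of 4167 in control. Smooth muscle genes were also present, with *Myh11* between 2360 and 4328 normalised CPM, and the plasma cell gene *Igha* was between 1369 and 3949. The 11 listed smooth muscle genes summed to between 9018 and 15970, and the 10 listed general epithelial genes to between 13570 and 15440. The levels here are thus not those of epithelium alone, although the label is organoid. The source of the other RNA was not tested. *Lgr5* itself was low, at 2.41 and 3.93 in TAM long and 2.41 and 3.03 in DMBA. The control libraries therefore differ from both groups in *Sis*, a marker of the gut segment, and their values are given below as levels and not as a baseline. Control and TAM short libraries are named NS and DSS_S, with S where NL and DSS_L have L. *Apob*, another small intestinal enterocyte gene, had means of 3917 and 3723 in control and TAM short, and 115 and 17.0 in TAM long and DMBA. The meaning of these letters is not given in the sources used here.

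In all, 437 genes (2.70% of those tested) differed between the groups. Of these, 201 (1.24%) were higher and 236 (1.46%) lower in TAM long, and 94 and 127 of them changed over 2-fold. Counts of called members in each list or family below stand beside these shares of 1.24% and 1.46%. The median log2 fold change was 0.97 among the higher and -1.10 among the lower genes. The libraries of the groups did not overlap for any of the 437, which is also true of 48.6% of all tested genes. An exact permutation test of 2 against 2 libraries cannot go below p = 0.333, so every call here rests on the spread pooled over genes and over 5 groups. With the 4 libraries fitted alone, 8 genes were higher and 21 lower, all of them among the 437.

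**Figure D2:**
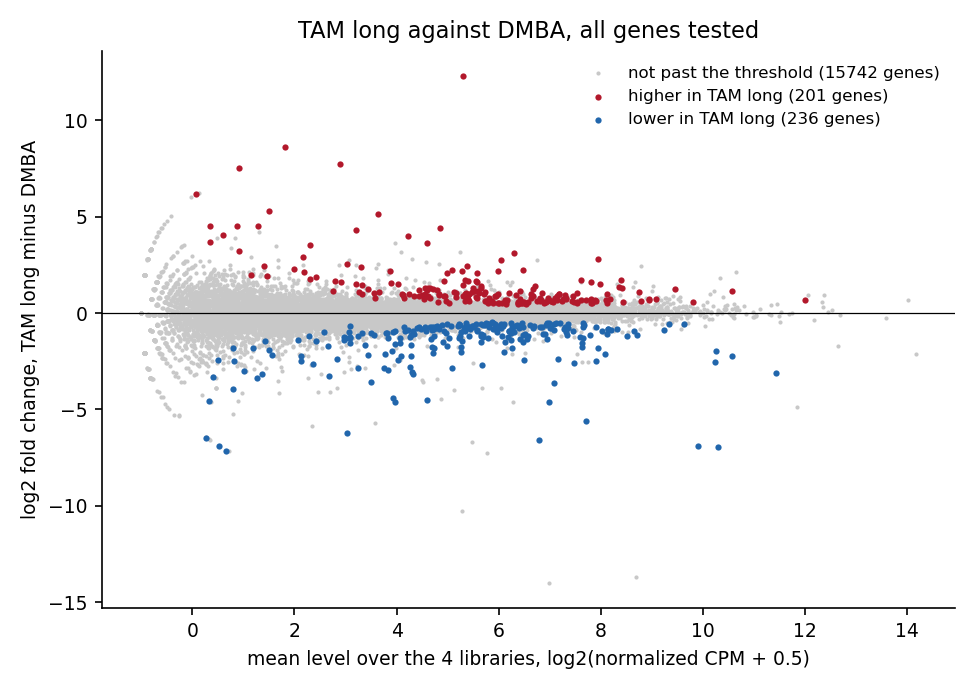
Log2 fold change of TAM long over DMBA (vertical axis) against the mean level over the 4 libraries, as log2 of normalised CPM plus 0.5 (horizontal axis), with 1 point per tested gene. The 201 higher genes are red and the 236 lower genes blue, and points below 0 with the largest size, such as *Ctrb1* at -13.71, are grey where the DMBA libraries disagreed.

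Interferon-induced genes were lower in TAM long. Of 20 listed and tested, 10 were called lower and none higher (1.46% and 1.24% of all tested genes were). In both libraries 16 lay below DMBA (24.4% of all tested genes did). The median log2 fold change was -1.17, against -0.00213 over all genes. *Ifi44*, an interferon-induced protein that limits virus replication, was at 9.40 and 6.78 normalised CPM in TAM long and 61.4 and 55.5 in DMBA. Both TAM long libraries lay far below both DMBA libraries, and the DMBA libraries were close to each other. Its log2 fold change was -2.84 ± 0.19 (adjusted p = 0.000147).

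*Isg15*, a ubiquitin-like protein, and *Usp18*, the protease that removes it from its targets, moved the same way. *Isg15* was at 24.7 and 30.1 normalised CPM in TAM long and 115 and 104 in DMBA, a log2 fold change of -2.0 ± 0.18 (adjusted p = 0.000832). *Usp18* was at 10.9 and 8.65 in TAM long and 44.2 and 39.3 in DMBA, a log2 fold change of -2.09 ± 0.20 (adjusted p = 0.00121). For each of them the spread within a group was small beside the distance between the groups. *Oasl2*, an oligoadenylate synthetase-like sensor of the antiviral response, was at 91.8 and 108 normalised CPM in TAM long and 333 and 256 in DMBA, a log2 fold change of -1.56 ± 0.18 (adjusted p = 0.00304).

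The promoters of these genes can be read beside the values. Motif searches used RefSeq promoters on GRCm38.p6, from 250 bases before to 50 after the start site, and 15 of the 20 interferon-induced and 12 of the 13 clock genes had an entry. The core of the interferon-stimulated response element, GAAA followed after any 2 bases by a further GAAA, on either strand and with overlapping matches allowed, was in 3.44% of 32851 promoters. It was in 4 of the 6 lower genes with an entry, *Isg15*, *Oas1a*, *Bst2* and *Gbp3*, and in 5 of the 9 genes that were not called, *Ifit1*, *Ifit3*, *Rsad2*, *Gbp2* and *Cxcl10*. *Ifi44* and *Oasl2*, also lower and with an entry, had no match, and *Usp18* had no entry. The 4 stretches of the lower genes are printed 5′ to 3′ on the strand of the gene with 20 bases on either side, to show the element where the level differed; capitals mark the matches, which are on the opposite strand in *Gbp3*.
Isg15, chr4:156200855-156200916, minus strand: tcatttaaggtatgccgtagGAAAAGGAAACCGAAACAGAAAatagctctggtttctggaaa
Oas1a, chr5:120907510-120907565, minus strand: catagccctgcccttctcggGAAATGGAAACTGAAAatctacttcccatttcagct
Bst2, chr8:71537567-71537622, minus strand: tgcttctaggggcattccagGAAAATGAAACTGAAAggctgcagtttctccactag
Gbp3, chr3:142559979-142560034, plus strand: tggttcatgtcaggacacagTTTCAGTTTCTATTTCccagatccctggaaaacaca
The *Isg15* stretch holds 3 overlapping matches, the first of them 78 bases before the start site, and the others hold 2 each, at 20 bases in *Oas1a*, 130 in *Bst2* and 45 in *Gbp3*. A match is a description of these letters and was not tested for binding.

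The other lower members of the list were antiviral effectors and sensors with smaller differences. *Oas1a*, an oligoadenylate synthetase, was at 57.1 and 56.6 normalised CPM in TAM long and 134 and 130 in DMBA (log2 fold change -1.21 ± 0.18, adjusted p = 0.0109). *Bst2*, the tetherin that holds budding virus at the membrane, was at 30.3 and 30.5 in TAM long and 76.6 and 61.8 in DMBA (log2 fold change -1.19 ± 0.17, adjusted p = 0.00840). Their TAM long libraries were nearly equal, and the DMBA libraries were nearly equal for *Oas1a* and further apart for *Bst2*. *Zbp1*, a sensor of left-handed nucleic acid, was at 54.3 and 51.3 in TAM long and 93.4 and 113 in DMBA (log2 fold change -0.96 ± 0.14, adjusted p = 0.00914). *Gbp3*, a guanylate-binding protein, was at 21.8 and 23.4 in TAM long and 41.8 and 63.1 in DMBA (log2 fold change -1.21 ± 0.19, adjusted p = 0.0146). None of these 4 genes was called without TAM long replicate 1 (adjusted p from 0.0898 to 0.163) or without TAM long replicate 2 (adjusted p from 0.0623 to 0.0838).

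*Mx2* and *Mx1*, antiviral GTPases, were called with less margin. *Mx2* was at 5.09 and 4.42 normalised CPM in TAM long and 19.0 and 11.5 in DMBA (log2 fold change -1.68 ± 0.29, adjusted p = 0.0208). *Mx1* was at 12.2 and 16.1 in TAM long and 29.2 and 43.1 in DMBA (log2 fold change -1.35 ± 0.26, adjusted p = 0.0305), and without DMBA replicate 2 it was no longer called (log2 fold change -1.05, adjusted p = 0.0682). Neither *Mx* gene was called without a TAM long library (adjusted p from 0.0898 to 0.226). Without DMBA replicate 2, 12 members of the list were lower, and without DMBA replicate 1 there were 11. Only 4 were lower without TAM long replicate 1 and 4 without TAM long replicate 2, or with the 4 libraries fitted alone.

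Members that were not called included regulators. *Irf7*, the factor that amplifies the response, was at 252 and 224 normalised CPM in TAM long and 455 and 300 in DMBA (log2 fold change -0.67 ± 0.22, adjusted p = 0.137). It was below DMBA in each library, with a gap that the test did not separate from the spread, and was called without DMBA replicate 2 (log2 fold change -0.93, adjusted p = 0.0426). *Irf1* stood above DMBA, at 195 and 172 against 126 and 133 (log2 fold change 0.50 ± 0.12, adjusted p = 0.0553). DESeq2 called 1 member of the list higher and 13 lower. The chemokines *Cxcl9* and *Cxcl10*, which answer mostly to interferon gamma, had adjusted p-values of 0.274 and 0.324 at levels under 7.5 normalised CPM.

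Outside the list, the genes of interferon responses and viral RNA sensing looked at went in both directions. These families and genes were chosen after their values were seen. Over all tested genes 1.46% were called lower and 1.24% higher. Of 12 genes of the *Oas* family 10 were tested and 7 of them called lower, *Oasl2* and *Oas1a* of the list included, with a median log2 fold change over the 10 of -1.23. *Oas2* was at 11 and 16.1 normalised CPM in TAM long and 103 and 72.7 in DMBA (log2 fold change -2.69 ± 0.30, adjusted p = 0.00304). Among 8 tested *Slfn* genes 3 were lower, and *Slfn4*, a schlafen of myeloid cells, was at 104 and 100.1 in TAM long and 413 and 469 in DMBA, a log2 fold change of -2.11 ± 0.21 (adjusted p = 0.00148). *Dhx58*, *Ddx58* and *Ddx60*, helicases of viral RNA sensing, were lower by log2 fold changes of -1.83, -0.69 and -1.11 (adjusted p = 0.00326, 0.0425 and 0.00326). Without TAM long replicate 1 none of the helicases was called (adjusted p = 0.0675, 0.228 and 0.0511), and *Ddx58* was also lost without DMBA replicate 1 or TAM long replicate 2 (adjusted p = 0.0816 and 0.186). *Stat2* was at 53.3 and 46.7 in TAM long and 96.4 and 94.8 in DMBA, a log2 fold change of -0.93 ± 0.12 (adjusted p = 0.00588, and 0.0546 without TAM long replicate 2). *Ifit1bl2* went the other way, at 76.4 and 34.2 in TAM long and 16.1 and 7.64 in DMBA, a log2 fold change of 2.21 ± 0.39 (adjusted p = 0.0216). It was 2.86 without DMBA replicate 1, and 1.51 and not called without TAM long replicate 1 (adjusted p = 0.151). Among 4 tested *Trim30* genes *Trim30a* was lower, at -1.45 ± 0.16 (adjusted p = 0.00289), while the median log2 fold change of the 4 was 0.78. Among 11 tested *Gbp* genes, guanylate-binding proteins, *Gbp3* of the list and *Gbp7* were lower, with a median of -0.38; *Gbp7*, at -0.66 ± 0.12 (adjusted p = 0.0299), was lost without DMBA replicate 2 and without either TAM long library (adjusted p = 0.0795, 0.210 and 0.151). *Mndal*, of the interferon-inducible p200 family, was higher, at 4.05 and 3.44 normalised CPM in TAM long and 0.179 and 0.112 in DMBA, where it had 2 counts and 1 count (adjusted p = 0.00371). *Ido1*, an enzyme induced by interferon gamma and described with the widest gaps, was also higher (log2 fold change 2.42, adjusted p = 0.000714). Neighbouring *Oas* genes are near copies of each other, and reads shared between them could be split or lost by the counting.

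**Figure D3:**
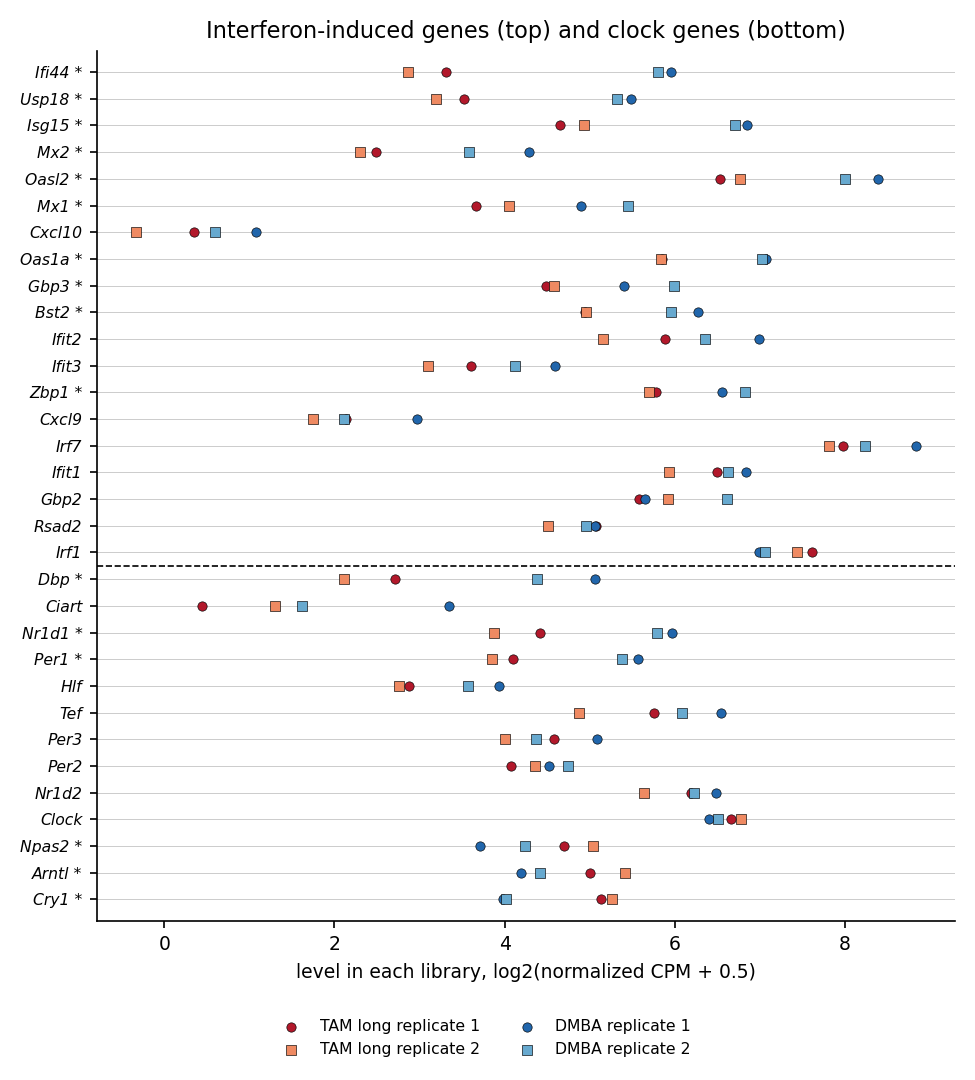
Level of 19 of the 20 listed interferon-induced genes (above the dashed line) and 13 clock genes (below it) in the 4 libraries, as log2 of normalised CPM plus 0.5, with 1 listed gene that was not called left out of the plot; an asterisk marks a called gene, red and orange points are TAM long and dark and light blue points DMBA, with circles for replicate 1 and squares for replicate 2. For *Ifi44*, *Usp18* and *Isg15* both TAM long points are left of both DMBA points with a wide gap, and among clock genes *Dbp*, *Nr1d1* and *Per1* lie left and *Cry1*, *Arntl* and *Npas2* right of DMBA.

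Clock genes moved in opposite directions. Of 13 tested, 3 were higher and 3 lower in TAM long (1.24% and 1.46% of all tested genes were). The higher ones were activators and a late repressor while the lower ones were early targets of the activators. *Dbp*, a PAR bZIP output factor, was at 6.04 and 3.83 normalised CPM in TAM long and 32.8 and 20.3 in DMBA. *Nr1d1*, which encodes the repressor REV-ERB alpha, was at 20.8 and 14.2 in TAM long and 61.9 and 54.9 in DMBA. *Per1*, a period repressor, was at 16.6 and 14 in TAM long and 47.1 and 41.1 in DMBA. For all 3 the higher TAM long library was below the lower DMBA library by more than the distance within either group on the log2 scale. The log2 fold changes were -2.42 ± 0.28 for *Dbp*, -1.74 ± 0.20 for *Nr1d1* and -1.52 ± 0.17 for *Per1* (adjusted p = 0.00326, 0.00326 and 0.00297).

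*Arntl*, which encodes BMAL1, was at 31.7 and 42.3 normalised CPM in TAM long and 17.8 and 20.9 in DMBA (log2 fold change 0.94 ± 0.16, adjusted p = 0.0208). *Npas2*, a partner of BMAL1, was at 25.4 and 32.4 in TAM long and 12.6 and 18.3 in DMBA (log2 fold change 0.91 ± 0.20, adjusted p = 0.0494). *Cry1*, a cryptochrome repressor that peaks late, was at 34.6 and 37.7 in TAM long and 15.3 and 15.7 in DMBA (log2 fold change 1.22 ± 0.14, adjusted p = 0.00304). The TAM long libraries were above DMBA for all 3, most clearly for *Cry1*. *Npas2* was lost without DMBA replicate 1 (adjusted p = 0.0984) and without TAM long replicate 1 or 2 (adjusted p = 0.151 and 0.229), and *Arntl* without TAM long replicate 2 (adjusted p = 0.113). *Dbp*, *Nr1d1*, *Per1* and *Cry1* were called with each of the 4 libraries left out in turn. With the 4 libraries fitted alone none of the 13 passed.

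*Clock*, the constant partner in the loop, was at 100.5 and 109 normalised CPM in TAM long and 84.3 and 90.3 in DMBA (log2 fold change 0.26 ± 0.11, adjusted p = 0.221). *Hlf* and *Tef*, output factors like *Dbp*, had log2 fold changes of -0.99 ± 0.23 and -0.96 ± 0.28 (adjusted p = 0.0535 and 0.0987). *Per2*, *Per3*, *Nr1d2* and *Ciart* had values between -2.13 and -0.42 that did not pass. *Ciart* was -2.77 and called without DMBA replicate 2 (adjusted p = 0.0310), -0.88 without DMBA replicate 1 (adjusted p = 0.513) and -2.82 without TAM long replicate 2 (adjusted p = 0.235), and *Hlf* was called without DMBA replicate 2 (adjusted p = 0.0459). *Nfil3*, a repressor of the PAR bZIP targets and no member of the list, was at 12.3 and 13.1 in TAM long and 5.18 and 7.53 in DMBA (log2 fold change 1.01 ± 0.22, adjusted p = 0.0444). It stayed called without DMBA replicate 2, and was lost without DMBA replicate 1, TAM long replicate 1 or TAM long replicate 2 (adjusted p = 0.0845, 0.208 and 0.176). The time of day at which cultures were collected is not given in the sources used here.

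The E-box CACGTG, to which BMAL1 dimers bind, was in 7.15% of the 32851 promoters. Among clock genes with an entry it was in 1 of 3 higher genes, *Cry1*, in 1 of 3 lower genes, *Per1*, and in 2 of 6 that were not called, *Tef* and *Ciart*. Both called genes are printed, since the same letters stand before genes that differed in opposite directions; capitals mark the motif.
Per1, chr11:69098763-69098808, plus strand: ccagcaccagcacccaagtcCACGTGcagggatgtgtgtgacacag
Cry1, chr10:85185089-85185134, minus strand: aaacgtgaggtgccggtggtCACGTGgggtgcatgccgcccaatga
The motif starts 166 bases before the start site of *Per1* and 60 before that of *Cry1*.

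Of the genes with the widest gaps between the groups, the higher ones are described first. *Sprr2a2*, a small proline-rich protein of the cell envelope, was at 95.4 and 61.3 normalised CPM in TAM long and had no count in either DMBA library. Taking 3 counts as the floor of each library, it was at least 259-fold higher (adjusted p = 0.000147). Neither of its close neighbours was called. *Sprr2a1* was at 36.1 and 38.3 in TAM long and 15.7 and 16.2 in DMBA (log2 fold change 1.22 ± 0.48, adjusted p = 0.208), both TAM long libraries above both DMBA libraries as for *Sprr2a2*. *Sprr2a3* had the opposite sign, at 487 and 607 in TAM long and 844 and 1092 in DMBA (log2 fold change -0.82 ± 0.21, adjusted p = 0.0657, and 0.0247 without DMBA replicate 1). On chromosome 3, *Sprr2a2* spans 92215920 to 92256724 and contains all but the first bases of *Sprr2a1*, from 92215799 to 92221911, so the split of reads between these near copies is uncertain.

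*Pnp2*, a purine nucleoside phosphorylase, was at 12.3 and 15.2 normalised CPM in TAM long and at 0 and 0.112 in DMBA, at least 45.6-fold higher against the same floor (adjusted p = 0.000147). *Trim12a* was at 23.5 and 23.2 in TAM long and 0.804 and 0.449 in DMBA, a log2 fold change of 5.15 ± 0.32 (adjusted p = 0.000234). Next to it on chromosome 7, *Trim5* was at 7.16 and 5.01 in TAM long and had no count in DMBA, at least 20.1-fold higher (adjusted p = 0.00412). *Trim12c*, the other close copy, did not move with them, at 72.5 and 69.9 in TAM long and 63.8 and 63.7 in DMBA (log2 fold change 0.16 ± 0.10, adjusted p = 0.442). These genes were near absent from both DMBA libraries and present in both TAM long libraries. *Sprr2a2*, *Pnp2* and *Trim12a* were also at or near 0 in control, with means of 0, 0.354 and 0.825 normalised CPM. Their means in TAM short were 40.3, 141 and 25.4. In DMBA+TAM, which also received tamoxifen, *Sprr2a2* was at 0.528 and 0, and *Pnp2* and *Trim12a* were at 0 in both libraries. Those libraries are smaller, and 3 counts stand for 1.58 and 1.32 normalised CPM there.

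*Slc15a2*, which encodes the peptide transporter PEPT2, was at 61.0 and 47.1 normalised CPM in TAM long and 2.41 and 2.58 in DMBA, a log2 fold change of 4.43 ± 0.22 (adjusted p = 4.8e-05). *Xpnpep2*, a membrane aminopeptidase, was at 50.5 and 37.6 in TAM long and 4.02 and 2.92 in DMBA, a log2 fold change of 3.65 ± 0.30 (adjusted p = 0.000553). *Slc34a2*, a sodium phosphate cotransporter, was at 80.3 and 71.5 in TAM long and 17.7 and 18.1 in DMBA, a log2 fold change of 2.08 ± 0.17 (adjusted p = 0.000832). These 3 proteins sit in apical membranes, and each was higher in both TAM long libraries with little spread in DMBA. *Ido1*, the enzyme that turns tryptophan into kynurenine, was at 80.7 and 57.3 in TAM long and 14.3 and 11.5 in DMBA, a log2 fold change of 2.42 ± 0.19 (adjusted p = 0.000714). *Dio1*, a deiodinase of thyroid hormone, was at 64.3 and 59.2 in TAM long and 20.1 and 17.5 in DMBA, a log2 fold change of 1.71 ± 0.18 (adjusted p = 0.00304).

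Other higher genes had a wider spread within the groups. *Hsd3b3* and *Hsd3b2*, hydroxysteroid dehydrogenases encoded close together on chromosome 3, were the 2 of 7 family members with enough counts to be tested, and both were higher. *Hsd3b3* was at 161 and 122 normalised CPM in TAM long and 23.6 and 9.10 in DMBA (log2 fold change 3.10 ± 0.39, adjusted p = 0.0111). *Hsd3b2* was at 38.9 and 29.9 in TAM long and 3.21 and 0.899 in DMBA (log2 fold change 4.0 ± 0.49, adjusted p = 0.00369). DMBA replicate 2 was the lower of the DMBA libraries for both, and without DMBA replicate 1 the log2 fold changes were 3.95 for *Hsd3b3* and 5.23 for *Hsd3b2*. *Apob*, the apolipoprotein of chylomicrons, was at 142 and 87.8 in TAM long and 24.3 and 9.77 in DMBA (log2 fold change 2.74 ± 0.39, adjusted p = 0.00871), and 3.55 without DMBA replicate 1. It was the only 1 of 18 small intestinal enterocyte genes to be called. *Ces2a*, a carboxylesterase that hydrolyses drugs and lipids, was at 560.2 and 294 in TAM long and 87.3 and 35.0 in DMBA (log2 fold change 2.80 ± 0.42, adjusted p = 0.0160), and 3.61 without DMBA replicate 1. Without TAM long replicate 1, *Hsd3b2*, *Hsd3b3*, *Apob* and *Ces2a* were not called (adjusted p = 0.0662, 0.102, 0.0733 and 0.107).

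*Ak4*, a mitochondrial adenylate kinase, was at 127 and 78.6 normalised CPM in TAM long and 18.9 and 26.4 in DMBA (log2 fold change 2.19 ± 0.26, adjusted p = 0.00326). *Mal*, a proteolipid of apical transport, was at 155 and 137 in TAM long and 46.7 and 14.9 in DMBA (log2 fold change 2.23 ± 0.48, adjusted p = 0.0425); it was 3.29 without DMBA replicate 1 and not called without either TAM long library (adjusted p = 0.227 and 0.140). *Tat*, the tyrosine aminotransferase, was at 51.8 and 39.0 in TAM long and 14.3 and 14.6 in DMBA (log2 fold change 1.65 ± 0.21, adjusted p = 0.00743), and was lost without TAM long replicate 1 (adjusted p = 0.0706). The remaining higher genes of the gap rule, *Gm36640*, *Gm44215*, *BC064078*, *Gm43205* and *Gstp2*, had log2 fold changes from 2.07 to 4.30. *Gstp2* was lost without DMBA replicate 2 (adjusted p = 0.0526) and without TAM long replicate 1, where its log2 fold change was 1.82 (adjusted p = 0.156). *Gm36640* was lost without TAM long replicate 1 (adjusted p = 0.0866) and rose to 5.56 without DMBA replicate 1, and *BC064078* and *Gm43205* were lost without TAM long replicate 1 (adjusted p = 0.0625 and 0.110); *BC064078* was 3.0 without DMBA replicate 2.

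**Figure D4:**
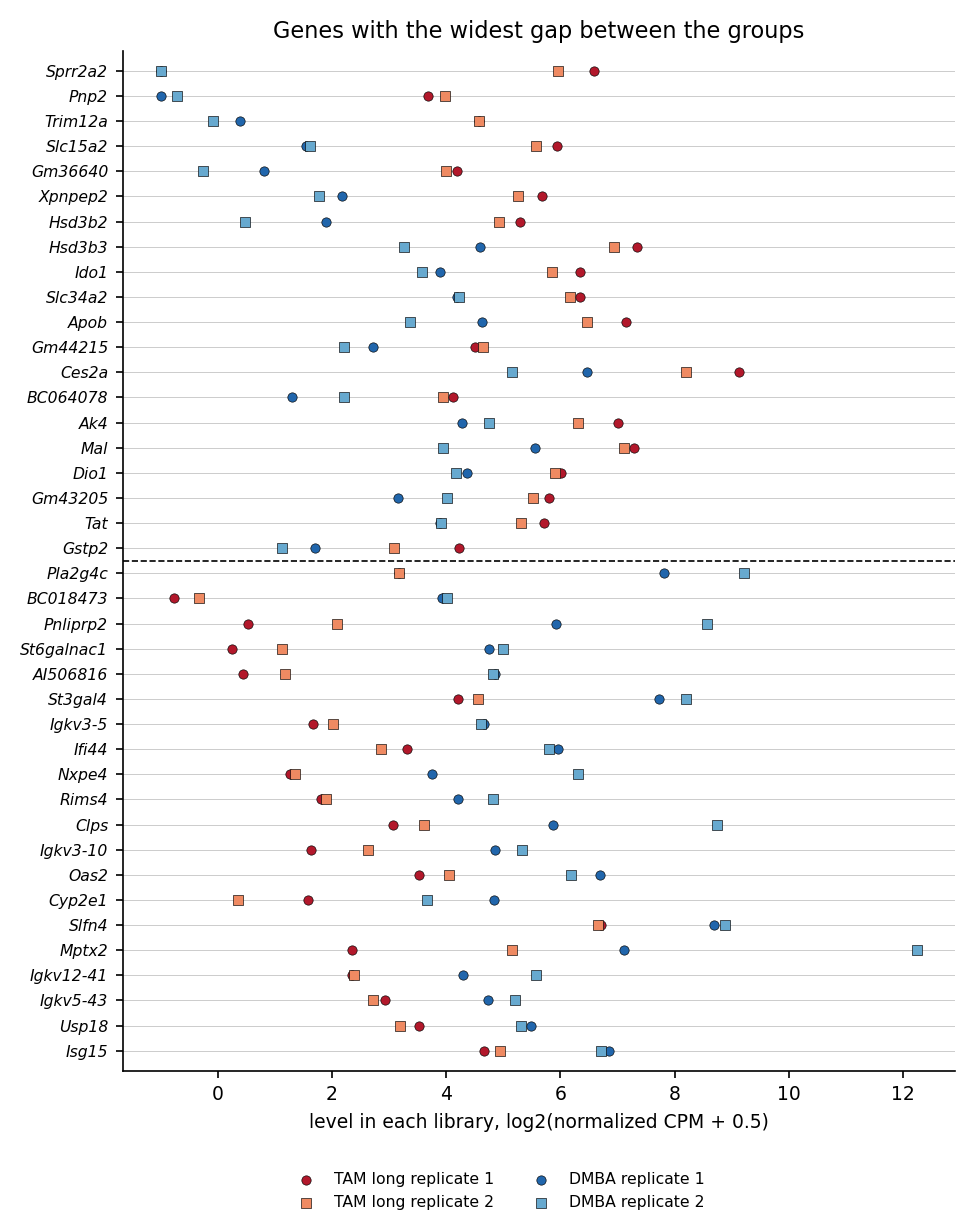
Level of the 20 higher (above the dashed line) and 20 lower genes with the widest gap between the nearest TAM long and DMBA libraries, as log2 of normalised CPM plus 0.5, with a point for each of the 4 libraries. *Sprr2a2*, *Pnp2* and *Slc15a2* show DMBA points close together and far left of TAM long, whereas *Mptx2* and *Clps* show DMBA replicate 2 far to the right of DMBA replicate 1.

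Among the lower genes with the widest gaps were *St3gal4* and *St6galnac1*, both sialyltransferases. *St3gal4*, which adds sialic acid to galactose, was at 18.0 and 23.0 normalised CPM in TAM long and 210.1 and 292 in DMBA, a log2 fold change of -3.61 ± 0.19 (adjusted p = 5.2e-05). *St6galnac1*, the enzyme of the sialyl-Tn antigen of goblet cell mucin, was at 0.690 and 1.67 in TAM long and 26.5 and 31.5 in DMBA, a log2 fold change of -4.62 ± 0.37 (adjusted p = 0.000476), and -5.36 without TAM long replicate 2. *BC018473*, an antisense transcript annotated near it on chromosome 11 without overlapping it, was at 0.0863 and 0.295 in TAM long and 14.7 and 15.6 in DMBA, at least 54.6-fold lower against the floor of 3 counts (adjusted p = 0.000981). The DMBA libraries of each gene were close to each other, and the TAM long libraries of *St6galnac1* and *BC018473*, though over 2-fold apart at few counts, stayed far below them. Reads of an antisense transcript and of a gene it overlaps cannot be told apart, as the strand setting of the counting is not given in the sources used here.

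*Pla2g4c*, a cytosolic phospholipase, was at 8.54 and 8.55 normalised CPM in TAM long and 225 and 594 in DMBA (log2 fold change -5.58 ± 0.51, adjusted p = 0.000892). The TAM long libraries were equal and the DMBA libraries over 2-fold apart, and without DMBA replicate 2 the log2 fold change was -4.71 (adjusted p = 0.000221). *AI506816* was at 0.863 and 1.77 in TAM long and 28.4 and 27.6 in DMBA (log2 fold change -4.42 ± 0.27, adjusted p = 0.000132). *Rims4*, an active zone protein, was at 3.02 and 3.24 in TAM long and 18.0 and 27.6 in DMBA (log2 fold change -2.86 ± 0.33, adjusted p = 0.00326), and was lost without TAM long replicate 1 (adjusted p = 0.0662). *Igkv3-5*, a kappa light chain variable segment, was at 2.67 and 3.54 in TAM long and 24.7 and 23.9 in DMBA (log2 fold change -2.97 ± 0.24, adjusted p = 0.000832).

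For other lower genes the size of the difference moved with the library left out. *Clps*, the colipase of the pancreas, was at 7.85 and 11.8 normalised CPM in TAM long and 58.0 and 425 in DMBA, and its log2 fold change of -4.62 became -2.56 without DMBA replicate 2 (adjusted p = 0.0197 and 0.00244). *Pnliprp2*, a lipase related to pancreatic lipase, was at 0.949 and 3.73 in TAM long and 60.2 and 378 in DMBA, with -6.57 becoming -4.71 (adjusted p = 0.00743 and 0.000974). *Nxpe4* was at 1.90 and 2.06 in TAM long and 13.0 and 78.3 in DMBA, with -4.51 becoming -2.71 (adjusted p = 0.0206 and 0.0269). All 3 stayed lower with DMBA replicate 1 alone, at a smaller fold, and were at -5.44, -7.36 and -5.30 without it. *Clps*, *Pnliprp2* and *Nxpe4* were not called without TAM long replicate 1 (adjusted p = 0.197, 0.107 and 0.197), where *Pnliprp2* was -5.86, nor were *Clps* and *Nxpe4* without TAM long replicate 2 (adjusted p = 0.106 and 0.127), where *Pnliprp2* was -7.82 and called. *Cyp2e1*, a cytochrome that oxidises ethanol, was at 2.50 and 0.786 in TAM long and 27.9 and 12.2 in DMBA (log2 fold change -3.58 ± 0.65, adjusted p = 0.0256), was -2.85 without DMBA replicate 1, and was lost without TAM long replicate 1, where it was -4.66, or without replicate 2 (adjusted p = 0.144 and 0.151).

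Secretory cell genes were measured with the same wide spread in DMBA. Of 18 goblet cell genes, 3 were lower in TAM long and none higher (1.46% and 1.24% of all tested genes were). Their median log2 fold change was -0.56. In bulk RNA, fewer cells of a type and less RNA per cell cannot be told apart. *Spink4* was at 272 and 431 normalised CPM in TAM long and 765 and 3358 in DMBA (log2 fold change -2.55 ± 0.56, adjusted p = 0.0469), and *Capn9* at 22.3 and 45.5 in TAM long and 76.0 and 159 in DMBA (log2 fold change -1.79 ± 0.37, adjusted p = 0.0373). Without DMBA replicate 2 *Spink4* and *Capn9* were at -1.12 and -1.17 and not called (adjusted p = 0.0571 and 0.0900), and *St6galnac1* alone was called of the list. Neither was called without TAM long replicate 1 (adjusted p = 0.296 and 0.237), and *Spink4* also not without TAM long replicate 2 (adjusted p = 0.151), where *Capn9* was -2.40. *Muc2*, the gel-forming mucin that defines the cells, was at 9589 and 12510 in TAM long and 13700 and 13120 in DMBA (log2 fold change -0.28 ± 0.21, adjusted p = 0.511). Without DMBA replicate 1 instead, 10 of the 18 were lower, with *Spink4* at -3.26.

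*Ang4* and *Itln1*, an antimicrobial ribonuclease and an intelectin that binds microbial sugars, were lower among 6 tested Paneth cell genes. *Ang4* was at 254 and 874 normalised CPM in TAM long and 2081 and 7751 in DMBA (log2 fold change -3.12 ± 0.67, adjusted p = 0.0429), and -1.88 without DMBA replicate 2 (adjusted p = 0.0926). *Ang4* was -3.78 without DMBA replicate 1, and was not called without TAM long replicate 1 or 2, at -2.49 and -4.27 (adjusted p = 0.229 and 0.0553). *Itln1* was at 16.4 and 40 in TAM long and 104 and 198 in DMBA (log2 fold change -2.42 ± 0.42, adjusted p = 0.0208), and stayed called without DMBA replicate 2 (adjusted p = 0.0385). It was lost without TAM long replicate 1 (adjusted p = 0.144) and was -3.20 without TAM long replicate 2. In both genes replicate 2 was the higher library of each group. *Lyz1* was between 1.07 and 3.37 and *Defa17* had no count in the 4 libraries, so the defining Paneth cell genes were at or near 0. *Reg4*, a marker of deep crypt secretory cells, was at 18.5 and 13.9 in TAM long and 40.3 and 3772 in DMBA (log2 fold change -6.88 ± 1.54, adjusted p = 0.0493). Its log2 fold change was -1.31 without DMBA replicate 2 (adjusted p = 0.00547) and -7.86 without DMBA replicate 1, and it was lost without TAM long replicate 1 or 2 (adjusted p = 0.290 and 0.245). *Mptx2*, a mucosal pentraxin, was at 4.57 and 35.2 in TAM long and 138 and 4839 in DMBA (log2 fold change -6.98 ± 1.52, adjusted p = 0.0459), and -2.81 and not called without DMBA replicate 2 (adjusted p = 0.0749). It was -7.94 without DMBA replicate 1, and lost without TAM long replicate 1 or 2, at -6.14 and -9.08 (adjusted p = 0.263 and 0.122).

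Enteroendocrine genes stood the other way. Of 17 tested, 4 were higher and none lower (1.24% and 1.46% of all tested genes were), with a median log2 fold change of 0.76. With scaling by library size only, 2 were higher, and *Gcg* and *Tph1* were not called. *Chga* and *Chgb*, chromogranins of secretory granules, were at 39.3 and 26.7 and at 88.1 and 53.7 normalised CPM in TAM long, against 14.4 and 14.3 and 30.4 and 26.7 in DMBA (log2 fold changes 1.21 ± 0.23 and 1.31 ± 0.23, adjusted p = 0.0284 and 0.0228). *Gcg*, the glucagon and GLP-1 precursor, was at 42.3 and 51.5 in TAM long and 24.2 and 19.9 in DMBA (log2 fold change 1.08 ± 0.23, adjusted p = 0.0401). *Tph1*, the enzyme of serotonin synthesis, was at 9.06 and 6.39 in TAM long and 2.86 and 1.24 in DMBA (log2 fold change 1.88 ± 0.42, adjusted p = 0.0493). Without DMBA replicate 2 none of these 4, *Chga*, *Chgb*, *Gcg* and *Tph1*, was called (adjusted p = 0.0613, 0.0579, 0.0973 and 0.111), at log2 fold changes from 0.95 to 1.43. None was called without TAM long replicate 1 (adjusted p from 0.164 to 0.307), nor *Gcg* and *Tph1* without TAM long replicate 2 (adjusted p = 0.199 and 0.133), and *Tph1* was 2.63 without DMBA replicate 1. The number called was 7 without DMBA replicate 1, where *Nts*, *Sct* and *Cck*, encoding neurotensin, secretin and cholecystokinin, were added at log2 fold changes of 6.59, 2.13 and 2.53 (adjusted p = 0.0111, 0.0122 and 0.0312, against 0.112, 0.113 and 0.152 with all libraries). It was 1 without DMBA replicate 2, where *Pyy*, the peptide YY gene, was called (log2 fold change 1.07, adjusted p = 0.0494). In TAM short against control *Chga* was called lower (log2 fold change -1.20, adjusted p = 0.00645), and *Chgb* had -0.33 (adjusted p = 0.399). *Gcg* was called higher there (log2 fold change 1.39, adjusted p = 0.00397), and *Tph1* had -0.21 (adjusted p = 0.844).

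Antimicrobial and inflammation genes had no call in edgeR among 24 tested (10 had an unadjusted p under 0.05), although 15 lay above DMBA in both TAM long libraries (24.2% of all tested genes did) and the median log2 fold change was 0.79. *Reg3b*, a bactericidal lectin, was at 1126 and 359 normalised CPM in TAM long and 207 and 65.1 in DMBA (log2 fold change 2.44 ± 0.62, adjusted p = 0.0678). It was 3.51 and called without DMBA replicate 1 (adjusted p = 0.0141), 1.84 without DMBA replicate 2, 1.40 without TAM long replicate 1 and 3.04 without TAM long replicate 2 (adjusted p = 0.138, 0.384 and 0.0632). *Tnf* was at 5.43 and 3.64 in TAM long and 0.625 and 1.12 in DMBA (log2 fold change 2.39 ± 0.54, adjusted p = 0.0521). *Saa1*, an acute phase apolipoprotein, was at 901 and 1035 in TAM long and 261 and 558 in DMBA (log2 fold change 1.24 ± 0.34, adjusted p = 0.0855), and was 1.89 and called without DMBA replicate 2 (adjusted p = 0.0138). Without DMBA replicate 2, 4 genes of the list were higher, and DESeq2 and the fit with a replicate block each called 3 higher, with 1 lower in DESeq2.

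Genes of drug metabolism were mostly above 0, with 22 of 28 at a positive log2 fold change and a median of 0.67, against -0.00213 over all genes. Of the 28, 3 were called higher and *Cyp2e1* lower (1.24% and 1.46% of all tested genes were). *Abcg2*, an efflux pump of drugs and carcinogens, was at 131 and 170.2 normalised CPM in TAM long and 55.0 and 59.4 in DMBA (log2 fold change 1.40 ± 0.15, adjusted p = 0.00216). *Mgst1*, a microsomal glutathione transferase, was at 129 and 105 in TAM long and 64.7 and 42.2 in DMBA (log2 fold change 1.13 ± 0.20, adjusted p = 0.0208). *Sult1b1*, a sulfotransferase, was at 181 and 216 in TAM long and 107 and 130 in DMBA (log2 fold change 0.75 ± 0.16, adjusted p = 0.0463), and was lost without DMBA replicate 1 (adjusted p = 0.0827). *Abcg2* was called with any library left out, and *Mgst1* and *Sult1b1* were not called without a TAM long library (adjusted p from 0.0510 to 0.205). None of 8 tested genes of the aryl hydrocarbon receptor passed (1 had an unadjusted p under 0.05, and DESeq2 called none), and *Cyp1a1*, its usual target, was at 0.393 normalised CPM or less in the 4 libraries. Of 11 targets of Nrf2, *Gclc* and *Pgd* were higher by log2 fold changes of 0.94 and 0.71 (adjusted p = 0.0330 and 0.0362), and both were lost without DMBA replicate 2 (adjusted p = 0.0873 and 0.0870) and without TAM long replicate 1 (adjusted p = 0.227 and 0.228), *Pgd* also without TAM long replicate 2 (adjusted p = 0.0838). With scaling by library size only, none of the 11 Nrf2 targets was called. None of 21 p53 targets was called (5 had an unadjusted p under 0.05, and DESeq2 called 1 higher), and *Cdkn1a* was at 186 and 212 in TAM long and 224 and 223 in DMBA (log2 fold change -0.17 ± 0.13, adjusted p = 0.527).

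Among stromal genes, 3 of 14 fibroblast genes were lower, all of them collagens, and none was higher (1.46% and 1.24% of all tested genes were). *Col1a1* was at 99.0 and 131 normalised CPM in TAM long and 291 and 279 in DMBA (log2 fold change -1.31 ± 0.18, adjusted p = 0.00853). *Col1a2* and *Col6a1* had log2 fold changes of -0.84 ± 0.15 and -0.83 ± 0.15 (adjusted p = 0.0229 and 0.0254). *Fn1*, which encodes fibronectin, is in another list, of 5 genes of epithelial-mesenchymal transition that the study names. It was the 1 called of the 5, whose median log2 fold change was 0.24, and *Snai1*, *Snai2*, *Twist1* and *Vim* had 0.24, 0.70, 0.48 and 0.09 (adjusted p = 0.816, 0.331, 0.721 and 0.791). *Twist1* was 1.42 without DMBA replicate 1 and -0.04 without DMBA replicate 2. *Fn1* was at 209 and 317 in TAM long and 584 and 560 in DMBA (log2 fold change -1.12 ± 0.23, adjusted p = 0.0362). Without TAM long replicate 1 none of *Col1a1*, *Col1a2*, *Col6a1* and *Fn1* was called (adjusted p from 0.107 to 0.229), nor *Col1a2* and *Col6a1* without TAM long replicate 2 (adjusted p = 0.0756 and 0.0986). The DMBA libraries were close to each other in these genes. Over the list, 8 genes lay below DMBA in both TAM long libraries (24.4% of all tested genes did) and 5 above (24.2%). Of the uncalled collagens, *Col5a1* was at a log2 fold change of -0.88 ± 0.21 (adjusted p = 0.0557), and at -1.03 and called without DMBA replicate 2 (adjusted p = 0.0432), and *Col3a1* had -0.63 ± 0.18 (adjusted p = 0.103). *Dcn*, a proteoglycan, was among the 5 above, at 221 and 268 in TAM long and 210.3 and 164 in DMBA (log2 fold change 0.39 ± 0.16, adjusted p = 0.213). The sum over the 14 fibroblast genes was 1866 and 2314 in TAM long and 2972 and 2565 in DMBA. Smooth muscle genes overlapped between groups, with sums of 10750 and 15970 in TAM long and 15400 and 9018 in DMBA and no call among 11, by edgeR or DESeq2 (0 with an unadjusted p under 0.05). The part of these cells in the results was not tested. Without DMBA replicate 2, 6 fibroblast genes were lower.

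Of 6 genes of stem cells that form a separate list, 1 was called. *Notch1*, a receptor that keeps crypt cells undifferentiated, was at 4.74 and 6.09 normalised CPM in TAM long and 12.5 and 12.5 in DMBA (log2 fold change -1.21 ± 0.20, adjusted p = 0.0202), and was lost without TAM long replicate 1 or 2 (adjusted p = 0.181 and 0.0554). *Lgr5* and *Cd44* had log2 fold changes of 0.22 ± 0.39 and 0.38 ± 0.20 (adjusted p = 0.809 and 0.346), and *Cd44* was called without DMBA replicate 1 (log2 fold change 0.80, adjusted p = 0.0111). *Sox4*, a transcription factor of progenitor cells, was at 9.14 and 9.24 in TAM long and 18.5 and 13.1 in DMBA (log2 fold change -0.79 ± 0.19, adjusted p = 0.0637), and was -1.01 and called without DMBA replicate 2 (adjusted p = 0.0278). None of 12 crypt stem cell genes was called (3 had an unadjusted p under 0.05, and DESeq2 called none), and 7 of them were below DMBA in both libraries (24.4% of all tested genes were) and 1 above. *Plk1*, a mitotic kinase, was the only call among 16 proliferation genes, at 32.1 and 35.4 in TAM long and 54.1 and 58.1 in DMBA (log2 fold change -0.73 ± 0.16, adjusted p = 0.0486), and it was lost without DMBA replicate 2 (adjusted p = 0.0957) and without TAM long replicate 1 or 2 (adjusted p = 0.299 and 0.165).

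*Egr1* and *Jun*, immediate early transcription factors, were higher among 13 such genes. *Egr1* was at 83.3 and 60.1 normalised CPM in TAM long and 22.3 and 24.0 in DMBA (log2 fold change 1.63 ± 0.18, adjusted p = 0.00293). *Jun* was at 162 and 152 in TAM long and 96.5 and 88.5 in DMBA (log2 fold change 0.77 ± 0.14, adjusted p = 0.0268), and was lost without DMBA replicate 2 (adjusted p = 0.0637) and without TAM long replicate 1 or 2 (adjusted p = 0.190 and 0.0978). *Fos* had 0.45 ± 0.21 (adjusted p = 0.280). *Mvk*, the mevalonate kinase of cholesterol synthesis, was lower by -0.73 ± 0.12 (adjusted p = 0.0206). *Acadm*, a dehydrogenase of fatty acid oxidation, was higher by 0.60 ± 0.10 (adjusted p = 0.0197). Neither was called without TAM long replicate 1 (adjusted p = 0.144 and 0.147) or without TAM long replicate 2 (adjusted p = 0.114 and 0.0783), nor was *mt-Nd1* (adjusted p = 0.201 and 0.191). Of 12 listed and tested mitochondrial transcripts, *mt-Nd1* was called higher, at 4862 and 5169 in TAM long and 3048 and 3281 in DMBA (log2 fold change 0.66 ± 0.14, adjusted p = 0.0426). In both TAM long libraries 8 of the 12 lay above DMBA (24.2% of all tested genes did), beside the higher mitochondrial share of these libraries. Of all 15 tested genes of the mitochondrial chromosome, 2 were called, both higher.

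The genes called here were also read in TAM short against control, a comparison that shares no library with TAM long against DMBA; it was chosen after the data were seen. It comes from the same fit, so both use 1 estimate of the spread, and its libraries differ from these in the level of *Sis*. In TAM short against control 6.52% of all tested genes were called higher and 7.80% lower. Of the 201 genes higher in TAM long, 85 (42.3%) were higher in TAM short and 9 lower, and 152 (75.6%) had a log2 fold change above 0, against 45.8% of all tested genes. Of the 236 lower genes, 89 (37.7%) were lower in TAM short and 19 higher, and 176 (74.6%) were below 0, against 53.6%. The difference between both comparisons was itself called for 54 of the higher and 72 of the lower genes (5.71% of all tested genes). It contains the TAM long against DMBA contrast by which these genes were chosen. A larger share than over all genes then follows in part from that choice, and does not show that the comparisons disagree.

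**Figure D5:**
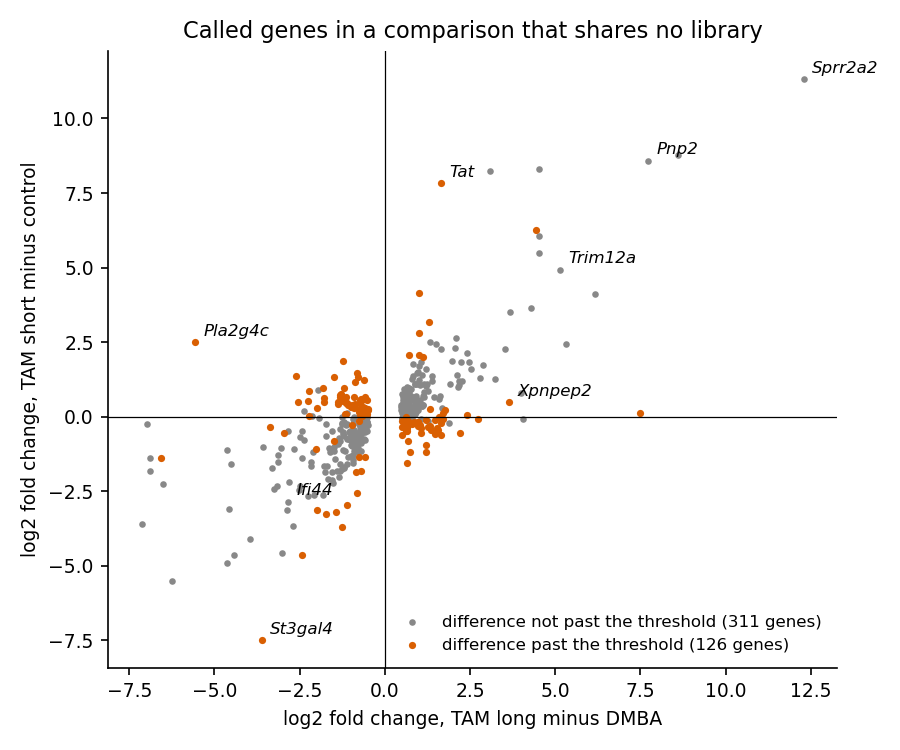
Log2 fold change of TAM short over control (vertical axis) against that of TAM long over DMBA (horizontal axis) for the 437 called genes, with the 126 whose difference between both comparisons passed the threshold in orange. *Sprr2a2*, *Pnp2* and *Trim12a* lie at the upper right, *St3gal4* at the lower left, and *Pla2g4c* at the upper left with opposite directions.

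Interferon-induced genes were called lower for 11 and higher for 3 of 20 in TAM short against control, with a median log2 fold change of -1.45. In control *Ifi44* was at 163 and 211 normalised CPM and in TAM short at 27.8 and 24.0 (log2 fold change -2.85, adjusted p = 2e-05). In control *Isg15* was at 307 and 439 and in TAM short at 44.2 and 41.4 (log2 fold change -3.12, adjusted p = 1.7e-05). Of the 13 clock genes, 7 were lower and 3 higher. The control level of *Dbp* was 24.6 and 23.5, against 1.13 and 0.757 in TAM short (log2 fold change -4.64, adjusted p = 6.5e-05), and that of *Cry1* was 18.8 and 17.8, against 55.4 and 55.8 in TAM short (log2 fold change 1.60, adjusted p = 0.000102). For *Ifi44* and *Isg15* the direction was the same as in TAM long against DMBA, and for *Dbp* and *Cry1* as well.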

How the data were processed

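RNA was measured in 10 libraries, 2 in each of 5 groups. Per the study's methods the authors aligned reads with TopHat and counted them per gene with HTSeq; the submitters' processing notes name the build GRCm38.p6. The deposited table holds raw counts, which were tested, and FPKM computed by the authors, used only in alternatives. Columns with fold changes and p-values of the submitters were not used. Gene IDs were matched to GENCODE M21 (98.77%), and 5 broken lines were dropped. edgeR 4.0.16 in R 4.3.3 was fitted to all 10 libraries (filterByExpr, TMM, a mean for each of 5 groups, quasi-likelihood test, Benjamini-Hochberg over all genes tested); normalised CPM uses the TMM totals. Steps were tested on simulated data. The members, the gene lists and the comparison itself were chosen with earlier results of these data known. Lists are described by counts and medians, with no test of the list. Named genes are those of the lists, the 20 with the widest gap in each direction among called genes averaging 50 or more counts per library, *Ppp2r1a*, and genes the study names; families, gene neighbours, *Mndal* and *Nfil3* were added after their values were seen. Replicate numbers were not treated as pairs in the main fit. The correlation of replicate differences between groups was 0.29, and no label ties a number to a mouse or day. With only 2 numbers, this value does not decide whether they pair the libraries. Alternatives used DESeq2 1.42.0 and limma 3.58.1. Tables and plots used pandas 2.3.3, matplotlib 3.10.9 and NumPy 2.4.6 under Python 3.11.15. Some items are not reported here.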

Additional observations from a re-analysis of the deposited data

Results flagged for a closer look

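Of 149 named genes whose difference between both comparisons (TAM long against DMBA minus TAM short against control, edgeR, Benjamini-Hochberg over all genes) was looked at, 52 passed the threshold, and each is given as that difference on the log2 scale. This difference was chosen after the data were seen, and the libraries of both comparisons differ in the level of *Sis*. The part of the gut segment in it was not tested. It contains the TAM long against DMBA contrast by which many of these genes were chosen, so the number that passed is not read against all genes.

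Log2 fold changes had opposite signs and were called in both comparisons for 7 of these genes. *Pla2g4c*, at -8.07 (log2 fold change -5.58 in TAM long against DMBA and 2.49 in TAM short against control), *Pfkfb3* at -1.96 (-1.31 and 0.66), *Ly6a* at -1.555 (-0.90 and 0.66), *Gbp7* at -1.21 (-0.66 and 0.55) and *Mvk* at -1.175 (-0.73 and 0.45) were lower and then higher; *Ly6a* was not called in TAM long against DMBA without TAM long replicate 1 (adjusted p = 0.114). *Chga* at 2.40 (1.21 and -1.20) and *Sult1b1* at 1.94 (0.75 and -1.19) were higher and then lower.

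Signs were opposite with a call in TAM long against DMBA but not in TAM short against control for *Zbp1* at -1.36, *Gsdmc2* at -2.27, *Gsdmc3* at -2.76, *Gsdmc4* at -2.79, *Gsdmcl2* at -3.98, *Capn9* at -2.44, *Spink4* at -3.06 and *Igkv5-43* at -2.25, lower in TAM long. The same held for *Apob* at 2.82, *Ces2c* at 1.79, *Ces2e* at 1.90, *Chgb* at 1.64, *Ifit1bl2* at 2.755 and *mt-Nd1* at 1.03, higher in TAM long. Signs were opposite with no call in TAM long against DMBA for *Gbp2* at -2.27 (-0.45 and 1.82), *Cxcl9* at -2.03 (-0.73 and 1.30), *Sprr2a3* at -4.67 (-0.82 and 3.85), *Muc2* at -1.27 (-0.28 and 0.99), *Fos* at 1.89 (0.45 and -1.44) and *Gclm* at 1.13 (0.85 and -0.28), of which *Gclm* was not called in TAM short against control either; in TAM long against DMBA, *Gbp2* was -0.86 and called without DMBA replicate 1 (adjusted p = 0.0166), and *Gclm* was 1.02 and called there (adjusted p = 0.0335) and 1.12 and called without TAM long replicate 2 (adjusted p = 0.0415).

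A more negative value of the same sign in TAM short against control was seen for *St3gal4* at 3.86 (-3.61 and -7.48), *Ddx60* at 1.86, *Ddx58* at 1.12, *Trim30a* at 1.76, *Isg15* at 1.12, *Ifit3* at 2.03, *Ifit1* at 1.35, *Rsad2* at 1.81 and *Ces2g* at 3.38, and among clock genes for *Nr1d2* at 1.57, *Nr1d1* at 1.54 and *Dbp* at 2.22; *Ifit3*, *Ifit1*, *Rsad2*, *Ces2g* and *Nr1d2* were not called in TAM long against DMBA, though *Ifit3* was called there, at -1.25, without DMBA replicate 2 (adjusted p = 0.0392). A more positive value was seen for *Tat* at -6.19 (1.65 and 7.84), *Slc15a2* at -1.84 (4.43 and 6.27), *Nfil3* at -1.79 (1.01 and 2.80), *Irf1* at -0.68 (0.50 and 1.18), *Saa1* at -6.29 (1.24 and 7.54), *Sprr2a1* at -5.60 (1.22 and 6.82), *Pyy* at -2.21 (0.76 and 2.97) and *Nos2* at -2.65 (1.29 and 3.95), of which *Irf1*, *Saa1*, *Sprr2a1*, *Pyy* and *Nos2* were not called in TAM long against DMBA; without DMBA replicate 2, *Pyy* was 1.07, *Nos2* 2.22 and *Saa1* 1.89 there, and all were called (adjusted p = 0.0494, 0.0124 and 0.0138).

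A smaller value of the same sign in TAM short against control was seen for *Xpnpep2* at 3.16, *Dio1* at 1.57 and *BC064078* at 2.35 among the higher, and for *Igkv3-5* at -2.42 and *Pnliprp2* at -5.17 among the lower genes.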

How the results depend on the processing

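No call of the 437 changed direction under any of the 14 alternatives, and scaling by library size (143 higher, 172 lower), DESeq2 size factors in edgeR (207 and 238) and limma voom with a variance for each group (154 and 177; mean weight 0.51 for DMBA and 0.974 for TAM long) stayed within 1.5 times of the main counts. DESeq2 called 416 higher and 434 lower, no filter on low counts 686 and 929, the 4 libraries alone 8 and 21, a minimum of 1 for the size of the log2 fold change 94 and 127, limma on log2(FPKM + 1) 146 and 144, and limma on log2(FPKM + 0.1) 95 and 104. The no-filter fit tested 26392 genes and the 4-library fit 14807. Leaving out 1 library in turn gave 28 to 421 higher and 30 to 615 lower genes: 421 and 615 without DMBA replicate 1, 218 and 202 without DMBA replicate 2, 28 and 30 without TAM long replicate 1, and 78 and 47 without TAM long replicate 2, where the lone library is assumed to vary like the other groups. The share of calls that were higher was 46.0% in the main fit, 27.6% with the 4 libraries alone and 62.4% without TAM long replicate 2. With the replicate number as a block 225 genes were higher and 244 lower, 176 and 210 of them shared with the main calls. Among named genes, *Reg4* and *Nfil3* lost their call with this block. The labels do not show whether the numbers pair the libraries. The causes of these differences were not tested.

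Of 101 named genes that were called, 21 kept the call in all 14 alternatives: *Sprr2a2*, *Pnp2*, *Trim12a*, *Slc15a2*, *Xpnpep2*, *Ido1*, *Slc34a2* and *Dio1* higher, and *Pla2g4c*, *BC018473*, *St6galnac1*, *AI506816*, *St3gal4*, *Igkv3-5*, *Ifi44*, *Oas2*, *Trim30a*, *Slfn4*, *Igkv5-43*, *Usp18* and *Isg15* lower. Interferon-induced genes called lower ranged from 4 to 15 of 20, and their median log2 fold change from -1.18 to -0.88. With 2 libraries a group, and wide spread in DMBA, a gene that was not called is not shown to be equal, and counts summed over exons do not show the deletion.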

Other observations

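Further gene families held several called genes in 1 direction. They were chosen after their values were seen and are given as values. Over all tested genes 1.24% were called higher and 1.46% lower. Of 5 tested *Gsdmc* genes (7 in the table) on chromosome 15, which encode gasdermins of the gut epithelium, 4 were lower in TAM long. *Gsdmc4* was at 467 and 588 normalised CPM in TAM long and 1597 and 3425 in DMBA (log2 fold change -2.25 ± 0.31, adjusted p = 0.00755), and *Gsdmcl2* at 40.3 and 60.2 in TAM long and 187 and 422 in DMBA (log2 fold change -2.60 ± 0.36, adjusted p = 0.0112). Without DMBA replicate 2 these were -1.60 and -1.90 (adjusted p = 0.00244 and 0.00653). *Gsdmc2* and *Gsdmc3* were lower by -1.98 and -1.81 (adjusted p = 0.0218 and 0.00751), and without TAM long replicate 1 none of the 4 was called (adjusted p from 0.103 to 0.201), nor *Gsdmc2*, *Gsdmc3* and *Gsdmcl2* without TAM long replicate 2 (adjusted p from 0.0515 to 0.101). The genes are near copies whose reads can be shared.

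Carboxylesterases of chromosome 8 went the other way. Of 6 tested *Ces2* genes 3 were higher, *Ces2a* as above, *Ces2c* at 339 and 257 normalised CPM in TAM long and 116 and 68.2 in DMBA (log2 fold change 1.69 ± 0.27, adjusted p = 0.0146), and *Ces2e* at 462 and 284 in TAM long and 171 and 89.4 in DMBA (log2 fold change 1.52 ± 0.31, adjusted p = 0.0387). *Ces2e* was lost without DMBA replicate 2 (adjusted p = 0.0637) and without TAM long replicate 1 or 2 (adjusted p = 0.247 and 0.0510), and *Ces2c* without TAM long replicate 1 (adjusted p = 0.137). The other 3 tested were not called, and *Ces2g* had -0.33 ± 0.41 (adjusted p = 0.713).

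Kappa light chain variable segments were called lower for 8 of 72 tested (160 in the table) and higher for none, with 42 of the 72 below 0 and a median log2 fold change of -0.65. *Igkv3-10* was at 2.59 and 5.70 normalised CPM in TAM long and 28.5 and 39.8 in DMBA (log2 fold change -3.05 ± 0.35, adjusted p = 0.00326), and -3.71 without TAM long replicate 2. The constant segment *Igkc* overlapped between the groups, at 1738 and 2003 in TAM long and 1223 and 3057 in DMBA (log2 fold change -0.19 ± 0.33, adjusted p = 0.794). It was -0.71 and called without DMBA replicate 1 (adjusted p = 0.0234) and 0.61 without DMBA replicate 2 (adjusted p = 0.0726).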
